A study of Drosophila eugracilis and Drosophila pseudoobscura and Drosophila bifasciata with 4 samples.

Results

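Short introns with unshared ends were described in the ovary transcripts of Drosophila pseudoobscura, Drosophila eugracilis and Drosophila bifasciata. An intron was a gap between the aligned blocks of a read, counted once per read pair and given the strand with more pairs. An intron entered the set when it was 40 to 99 nt long, was spliced in at least 10 pairs, and shared neither its start nor its end with another intron of at least 10 pairs in the same library. Of the introns with at least 10 pairs, the rule kept 13015 of 20163 in D. pseudoobscura, 8603 of 14782 in D. eugracilis and 13447 of 20268 in D. bifasciata. All ovaries came from wild-type females of laboratory strains (MV2-25 for D. pseudoobscura, SHL12 for D. eugracilis, and Jozankei, Hokaidou for D. bifasciata), kept at room temperature on standard food and dissected within a week of adult life. The 3 polyA libraries held DNase-treated, poly-A selected RNA sequenced from both ends with the RNA strand preserved, and a QuantSeq library of D. eugracilis held single reads started by oligo-dT near the 3′ ends of total RNA. The study examined the production of piRNAs, small RNAs that silence transposons, in species without the gene yb. Each of the 4 groups had 1 library, so species, library and preparation cannot be told apart, and values are given with counting intervals and without tests.

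An intron is removed from the precursor RNA by the spliceosome, which joins the donor end of the upstream exon to the acceptor end of the downstream exon. Many introns of flies are short, and in a short intron the splice sites are thought to be recognised as a pair across the intron itself, in what is called intron definition. RNA in which an intron remains is said to retain it, and a retained intron in coding sequence shifts the reading frame unless its length is a multiple of 3.

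The polyA libraries held 7076909 complete pairs for D. pseudoobscura, 6547762 for D. eugracilis and 6988973 for D. bifasciata, and the QuantSeq library held 6256158 reads. A spliced read must hold some bases on each side of the intron to be placed, and the files differed in how few sufficed. Pairs with under 8 aligned bases on one side made up 7.86% of the pairs across the short introns in D. pseudoobscura and 8.76% in D. eugracilis, against 0.409% in D. bifasciata, so that the lists of D. bifasciata held nearly no short overhangs. Spliced and unspliced pairs were therefore compared only where both had at least 8 aligned bases on each side. Markers of ovary cell types were not checked, because the gene table used here names the genes of D. eugracilis by locus number only.

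Short introns carried much of the splicing seen in these ovaries. Of the introns whose ends were not shared, they made up 69.6% for D. pseudoobscura, 61.7% for D. eugracilis and 71.4% for D. bifasciata. A short intron was spliced out in 725436 pairs of D. pseudoobscura, 806246 pairs of D. eugracilis and 1026720 pairs of D. bifasciata, or 58.3%, 47.5% and 57.0% of all spliced pairs. Both strands of the assemblies were used about equally, with 52.1%, 49% and 49.5% of the introns on the plus strand in the same order. Pairs on the opposite strand of an intron made up 1.42%, 0.337% and 0.772% of the pairs across it.

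The limits of the rule cut at different places of the distribution. At the lower limit there was little to lose, since 10, 130 and 61 introns lay under 40 nt in D. pseudoobscura, D. eugracilis and D. bifasciata, of which 0, 120 and 40 were gaps of 1 or 2 nt. The shortest members measured 47, 42 and 42 nt. At the upper limit, 22, 17 and 23 members measured 99 nt, and 26, 14 and 24 introns just outside measured 100 nt. The depth limit cut through a dense range, with 468, 399 and 329 members at 10 pairs and 525, 450 and 340 short introns left out at 9 pairs. The condition on shared ends removed 238, 159 and 310 introns.

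Within these limits the lengths formed a single broad peak in each species. The most frequent length was 63 nt in D. pseudoobscura, where 757 introns had it (5.82%, 95% interval 5.42 to 6.23). In D. eugracilis the peak lay at 59 nt with 597 introns (6.94%, 6.41 to 7.50), and in D. bifasciata at 62 nt with 818 introns (6.08%, 5.68 to 6.50). These and all other intervals are exact binomial (Clopper-Pearson) and cover counting error only, because reads amplified by PCR and carrying no molecular identifiers cannot be counted as separate molecules. The medians kept the same order, at 65 nt (quartiles 60 to 71) in D. pseudoobscura, 61 nt (58 to 66) in D. eugracilis and 64 nt (60 to 70) in D. bifasciata. The D. eugracilis introns were thus the shortest by mode and median, and their peak was the narrowest. Within 5 nt of the peak lay 61.9% of the introns in D. eugracilis, 55.1% in D. pseudoobscura and 55.3% in D. bifasciata. A tail towards longer introns was common to all, and lengths of 80 to 99 nt made up 8.81% for D. pseudoobscura, 6.97% for D. eugracilis and 8.06% for D. bifasciata.

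**Figure D1:**
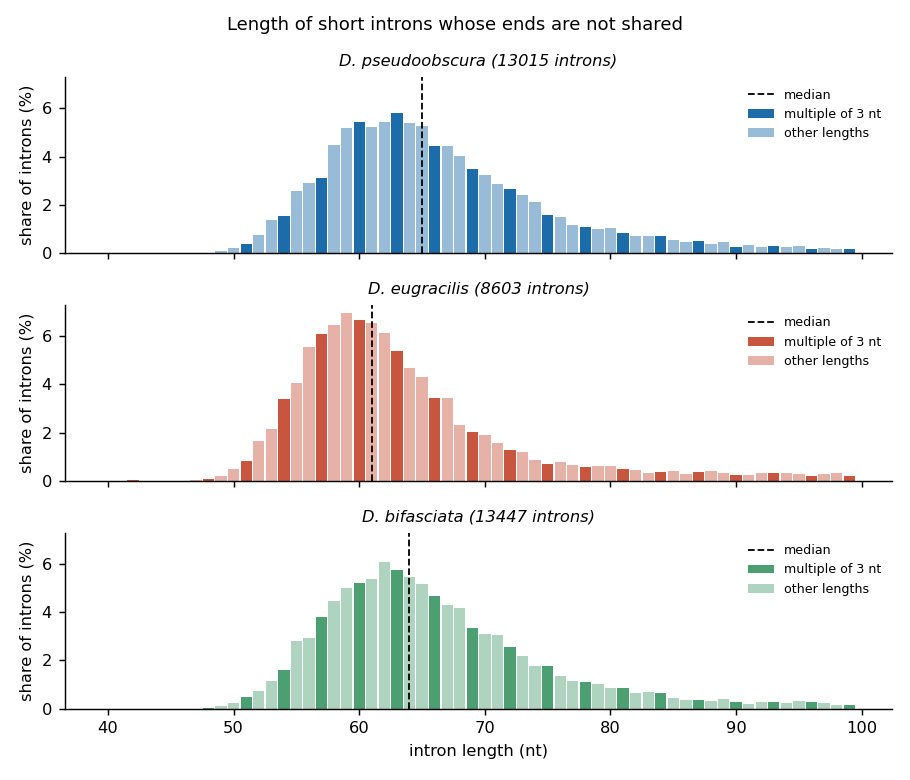
Length of short introns with unshared ends in 3 species (x axis, nt), as the share of the introns of each species (y axis, %). Dark bars are lengths that are a multiple of 3, light bars the other lengths, and dashed lines the medians, which lie at 65, 61 and 64 nt.

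Most short introns were read by few pairs and a small number by very many. The median was 29 pairs per intron in D. pseudoobscura (10th to 90th percentile 12 to 87), 27 in D. eugracilis (12 to 120) and 36 in D. bifasciata (14 to 111). At least 1000 pairs crossed 35, 79 and 71 introns, and the 10 deepest introns held 14.8%, 20.4% and 14.3% of all pairs across short introns. The deeper introns were slightly longer. In D. pseudoobscura the median length was 63 nt among introns of 10 to 29 pairs and 68 nt among those of 300 pairs or more, in D. eugracilis it was 61 and 64 nt, and in D. bifasciata 64 and 68 nt.

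The 3 deepest introns of each library are given by position, with start and end counted from 1. In D. pseudoobscura the deepest was an intron of 87 nt on the minus strand of contig utg000060l, 273442 to 273528, with 37956 pairs. It was followed by introns of 72 nt on utg000079l (2369065 to 2369136, minus strand, 13004 pairs) and of 68 nt on utg000062l (482374 to 482441, plus strand, 10911 pairs). Splicing was nearly complete at all 3, with unspliced shares of 0.335% (95% interval 0.278 to 0.398), 0.0151% (0.00243 to 0.0725) and 0.0559% (0.0205 to 0.122).

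In D. eugracilis the deepest intron was one of 72 nt on the plus strand of NW_024572672.1, 25798 to 25869, with 52432 pairs and an unspliced share of 0.375% (95% interval 0.324 to 0.434). An intron of 95 nt on NW_024572605.1 (374086 to 374180, plus strand) followed with 32756 pairs, of which 28037 had 8 aligned bases on each side. Against these stood 1 unspliced pair at the donor and 0 at the acceptor. The third, of 61 nt on NW_024573053.1 (126832 to 126892, minus strand), had 16958 pairs, 2 unspliced pairs at the donor and 3 at the acceptor. The first and second lay in the spans of 2 overlapping genes each, and the contig of the third could not be joined to the gene table, so no gene is named for them.

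In D. bifasciata the deepest was an intron of 73 nt on the plus strand of CM019043.1, 8238026 to 8238098, with 28101 spliced pairs, 3 unspliced at the donor and 11 at the acceptor. The second, of 65 nt on the same sequence and strand (38608114 to 38608178), had 26823 spliced pairs and an unspliced share of 0.536% (95% interval 0.451 to 0.628). The third, of 59 nt on the minus strand of CM019041.1 (39174992 to 39175050), had 19450 spliced pairs and 0.0771% (0.0431 to 0.127). The 9 introns named so far were thus unspliced in under 1% of the pairs at their ends. They were chosen for having most spliced pairs, which lower the unspliced share, so a low share is partly built in.

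At the extremes of length, the introns chosen for at least 100 pairs were also spliced in nearly all pairs, which that choice favours. Some introns with fewer spliced pairs, named below, were mostly unspliced. They measured 42 nt in D. eugracilis (99.7% unspliced), and 43 nt (99.5%) and 99 nt (99.9%) in D. bifasciata. The shortest intron with at least 100 pairs measured 50 nt in D. pseudoobscura (utg000142l, 1804315 to 1804364, minus strand), where 299 spliced pairs stood against 0 unspliced pairs (95% interval of the share 0 to 1.23%). It measured 48 nt in D. bifasciata (CM019041.1, 17664522 to 17664569, minus strand), with 147 spliced and 0 unspliced pairs (0 to 2.48%). In D. eugracilis it measured 49 nt (NW_024573823.1, 7899 to 7947, plus strand), with 580 spliced pairs and an unspliced share of 1.11% (0.377 to 2.22). Among introns of 99 nt, the deepest had 220 spliced and 0 unspliced pairs in D. pseudoobscura (utg000043l, 313132 to 313230, plus strand), 106 spliced and 2 unspliced pairs, both at the acceptor, in D. eugracilis (NW_024573645.1, 776884 to 776982, minus strand, in gene LOC108111503), and 389 spliced and 3 unspliced pairs, all at the acceptor, in D. bifasciata (CM019044.1, 4475996 to 4476094, minus strand).

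Unspliced RNA was counted as pairs on the strand of the intron that ran through its donor or its acceptor in one aligned block. The unspliced share was the mean of both ends over that mean plus the spliced pairs. Its median over introns was 0% in each library, and no unspliced pair was found at 85.7% of the introns for D. pseudoobscura (95% interval 85.1 to 86.3), 89.1% for D. eugracilis (88.5 to 89.8) and 86.9% for D. bifasciata (86.3 to 87.4). At the median depth of 26, 25 and 36 spliced pairs with 8 bases on each side, a count of 0 allows shares of up to 11.5%, 12% and 8.33%. Among introns with at least 300 such pairs, where a count of 0 allows at most 1%, there was none at 75 of 143, 133 of 244 and 139 of 246.

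A constitutive intron is one that is removed from every transcript, which the rule does not test, and a few introns of the set went against that word. Summed over all short introns, the unspliced share was 11.6% for D. pseudoobscura (95% interval 11.6 to 11.7), 7.30% for D. eugracilis (7.24 to 7.35) and 6.43% for D. bifasciata (6.38 to 6.47). Nearly all of this came from 31 introns for D. pseudoobscura, 35 for D. eugracilis and 65 for D. bifasciata with a share of 50% or more, which held 96.6%, 95.2% and 93.3% of the unspliced pairs. Without them the summed share was 0.444% (0.428 to 0.460), 0.379% (0.365 to 0.393) and 0.459% (0.446 to 0.472). This last set of values describes the other introns, 12984, 8568 and 13382 in number. A share of 10% or more was reached by 177, 146 and 247 introns in all, or 1.36%, 1.70% and 1.84%. Because the rule asked for spliced pairs and not for a share, an intron that is removed from a small fraction of an abundant RNA could enter it. Splice site sequences were not analysed, so whether each such rare gap is a true intron was not tested.

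**Figure D2:**
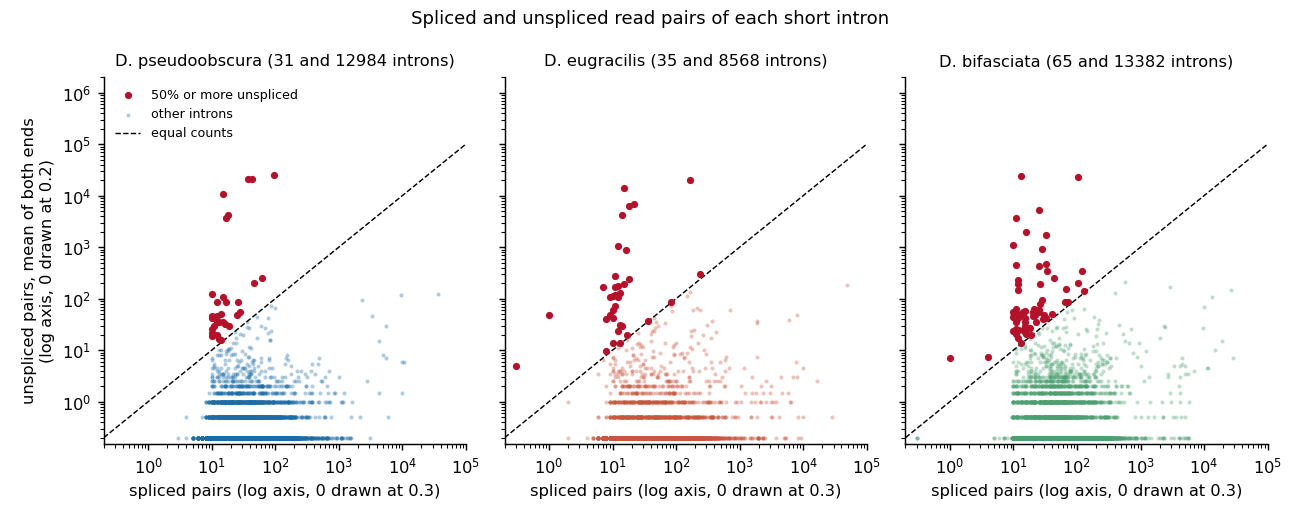
Spliced pairs (x axis, log scale) and unspliced pairs as the mean of both ends (y axis, log scale) of each short intron, 1 point per intron, with the dashed line at equal counts. Red points are the 31, 35 and 65 introns with an unspliced share of 50% or more, which lie on or above the line, most of them at few spliced pairs.

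The introns that were mostly unspliced had few spliced pairs, which is partly built in, since spliced pairs lower the unspliced share that defines them and also entered the rule. They were crossed by a median of 15 spliced pairs in D. pseudoobscura, against 29 for the other introns, 13 against 28 in D. eugracilis, and 18 against 36 in D. bifasciata. Under 30 pairs were found at 80.6%, 88.6% and 78.5% of them, against 51.0%, 53.1% and 40.5% of the others. Their lengths lay around those of the rest, with medians of 66 against 65 nt, 60 against 61 nt and 65 against 64 nt. They differed from the others in their place in the transcriptome. An intron of at least 1000 pairs on the same strand lay within 1000 nt of 22.6% of them in D. pseudoobscura (95% interval 9.59 to 41.1), against 0.293% of the others (0.207 to 0.401). The same held for 17.1% (6.56 to 33.6) against 1.18% (0.961 to 1.43) in D. eugracilis, and for 7.69% (2.54 to 17.0) against 0.508% (0.395 to 0.644) in D. bifasciata. An intron removed from a small part of its RNA reaches 10 pairs only where that RNA is abundant, so nearness to deep introns is partly built in as well, and introns of 1 transcript share their reads.

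Cases of this kind, the 3 introns with most unspliced pairs in each library, were chosen after their values were seen, and several lay beside the deepest introns. On the minus strand of utg000060l in D. pseudoobscura, under 1000 nt from the deepest intron, were introns of 57 nt (272761 to 272817), 87 nt (272902 to 272988) and 78 nt (272706 to 272783). The first was spliced in 95 pairs, while 20975 unspliced pairs crossed its donor and 28483 its acceptor. The second was spliced in 43 pairs, with 22591 and 20328 unspliced pairs, and the third in 37 pairs, with 25481 and 15715. All 3 lengths were multiples of 3, and the first and the third overlapped each other, so that they cannot both be removed from 1 RNA.

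On NW_024572672.1 in D. eugracilis, an intron of 98 nt (26043 to 26140, plus strand) followed the deepest intron of that library and was spliced in 168 pairs, while 21041 unspliced pairs crossed its donor and 18721 its acceptor. Its unspliced share of 99.2% was the highest among D. eugracilis introns with at least 100 spliced pairs. An intron of 73 nt in gene LOC108113208 (NW_024573812.1, 8538596 to 8538668, plus strand) was spliced in 15 pairs against 17338 and 11224 unspliced pairs. An intron of 42 nt in LOC108102464 (NW_024573052.1, 1510177 to 1510218, minus strand) was spliced in 22 pairs against 6560 and 6987. Both genes are protein-coding in the RefSeq table.

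On CM019043.1 in D. bifasciata, introns of 90 nt (38608241 to 38608330) and 99 nt (38608234 to 38608332), the first inside the second, lay downstream of the second deepest intron of that library on the plus strand. They were spliced in 102 and 13 pairs. At the donor 29426 and 30893 pairs were unspliced, and at the acceptor 17202 and 17252. An intron of 43 nt on the minus strand of CM019041.1 (30666139 to 30666181) was spliced in 25 pairs against 5287 unspliced pairs at the donor and 5379 at the acceptor. In each of the 3 libraries, therefore, the largest unspliced count lay within 1000 nt of one of the 3 deepest introns, which were almost fully spliced.

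Overlap with another intron that used neither of the same ends was also more frequent among the mostly unspliced introns. An overlapping intron of under 1000 nt with at least 10 pairs was present for 2 of 31 mostly unspliced introns in D. pseudoobscura, against 0 of the 12984 others. The 2 in D. pseudoobscura were the introns on utg000060l that overlap each other. The numbers were 2 of 35 against 3 of 8568 in D. eugracilis, and 13 of 65 against 84 of 13382 in D. bifasciata. With overlapping introns of any length, D. pseudoobscura had 3 of 31 against 99 of 12984. D. eugracilis then had 14 of 35 against 1702 of 8568, and D. bifasciata 17 of 65 against 1620 of 13382. An overlapping intron need not belong to the same RNA. Introns reach 10 pairs more easily where RNA is abundant, so the higher frequency of overlap may be partly built in too.

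Among introns with at least 100 spliced pairs, high shares were few. The highest shares in D. pseudoobscura were 39.4% (95% interval 31.9 to 47.3) at an intron of 68 nt on utg000092l (451685 to 451752, plus strand), with 100 spliced pairs against 41 at the donor and 89 at the acceptor, then 4.97% at one of 74 nt on utg000200l (657759 to 657832, plus strand) and 4.49% at one of 73 nt on utg000247l (404615 to 404687, plus strand). In D. eugracilis an intron of 57 nt in the gene LOC108102923 (NW_024572029.1, 907822 to 907878, plus strand) came after the one of 98 nt, with 55.1% (50.8 to 59.4) from 241 spliced pairs, 234 unspliced pairs at the donor and 358 at the acceptor, and the third, of 62 nt in LOC108111771, reached 44.5% (38.7 to 50.2). In D. bifasciata the intron of 90 nt named above led with 99.6%, an intron of 81 nt on CM019044.1 (43980986 to 43981066, minus strand) reached 74.3% (70.03 to 78.2), and an intron of 54 nt on the same sequence (33598388 to 33598441, plus strand) 65.4% (59.7 to 70.7). The 3 introns thus lay above 40% in D. eugracilis and D. bifasciata and under 40% in D. pseudoobscura.

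Lengths that are a multiple of 3 were counted, a measure that the rule used only through its limits. Retention that keeps the reading frame was itself not tested. Over all short introns the lengths were spread nearly evenly over the 3 remainders, and 32.5% were a multiple of 3 for D. pseudoobscura (95% interval 31.7 to 33.3), 32.8% for D. eugracilis (31.8 to 33.8) and 33.2% for D. bifasciata (32.4 to 34.0). The interval of D. pseudoobscura ended just under an even split, with 4232, 4362 and 4421 introns at the remainders 0, 1 and 2. Introns of 100 nt or more in the same libraries gave 33.4%, 33.9% and 32.6%. Among the introns that were 50% or more unspliced, multiples of 3 made up 21 of 31 for D. pseudoobscura (67.7%, 48.6 to 83.3), 18 of 35 for D. eugracilis (51.4%, 34.0 to 68.6) and 27 of 65 for D. bifasciata (41.5%, 29.4 to 54.4). In D. pseudoobscura and D. eugracilis the interval lay above the value of all short introns of that species, and in D. bifasciata it included it. For D. eugracilis this depended on the border, since with 4 aligned bases on each side 15 of 33 introns (45.5%, 28.1 to 63.6) and with 15 bases 18 of 40 (45%, 29.3 to 61.5) had such a length, and both intervals included the value of all short introns. In D. pseudoobscura the intervals with 4 and 15 bases, 45.1 to 79.6 and 51.3 to 84.4, lay above it. Of the introns that were 90% or more unspliced, 7 of 7, 10 of 19 and 9 of 15 had such a length.

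Over the 3 species together, 66 of 131 mostly unspliced introns had a length that is a multiple of 3 (50.4%, 95% interval 41.5 to 59.2), against 11454 of 34934 others (32.8%, 32.3 to 33.3). The remainders 1 and 2 were then found in 30 and 35 of the mostly unspliced introns. In the range from 10% to under 50%, multiples of 3 made up 45.2% of 146 introns for D. pseudoobscura (37.0 to 53.6), 32.4% of 111 for D. eugracilis (23.9 to 42.0) and 36.3% of 182 for D. bifasciata (29.3 to 43.7). In this middle range the interval lay above the value of all short introns in D. pseudoobscura and included it in the other species. Several classes were looked at in each species, and no difference was tested. Neighbouring or overlapping introns of 1 transcript, as on utg000060l, enter these counts apiece, and the species may hold the same gene.

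**Figure D3:**
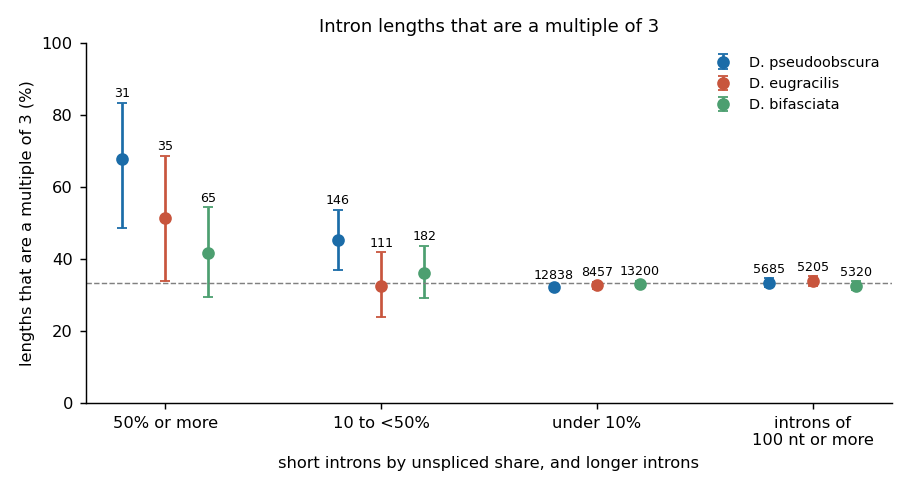
Share of introns whose length is a multiple of 3 (y axis, %) by unspliced share of the short introns and for introns of 100 nt or more (x axis), in 3 species. Points are shares, bars exact 95% intervals, numbers the introns in each group, and the dashed line an even split over the 3 remainders, above which the points of all 3 species lie at 50% or more unspliced.

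Fewer of the short introns than of the longer introns chosen by the same rule reached an unspliced share of 10%. A share of 10% or more was found at 1.36% of the short introns of D. pseudoobscura (95% interval 1.17 to 1.57), against 5.93% of introns of 100 to under 1000 nt (5.15 to 6.79) and 5.54% of introns of 1000 nt or more (4.66 to 6.54). The values were 1.70% (1.43 to 1.99) against 3.61% (3.03 to 4.28) and 8.56% (7.25 to 10.02) in D. eugracilis, and 1.84% (1.62 to 2.08) against 7.41% (6.50 to 8.40) and 8.89% (7.75 to 10.1) in D. bifasciata. None of the intervals of the short introns overlapped those of the longer ones. At 30 to 99 pairs, a matched range of depth, the share of 10% was reached by 0.749% of short introns (0.536 to 1.02) against 2.68% (1.88 to 3.69) and 2.68% (1.76 to 3.90) of the longer classes in D. pseudoobscura, and by 0.974% (0.748 to 1.25) against 4.53% (3.42 to 5.87) and 4.65% (3.33 to 6.31) in D. bifasciata. In D. eugracilis the 1.19% of short introns (0.829 to 1.65) lay below the 3.45% of introns of 1000 nt or more (2.02 to 5.46), while its interval overlapped that of the 2.12% at 100 to under 1000 nt (1.37 to 3.11). In the same range of depth, any unspliced pair was found at 14.7% of short introns against 32.9% and 33.7% of the longer classes in D. pseudoobscura, at 11.2% against 22.7% and 22.3% in D. eugracilis, and at 13.0% against 33.5% and 30.3% in D. bifasciata. In long introns an unspliced pair at one end can also come from another transcript that starts or ends inside the intron, and this was not separated here.

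The summed share did not keep this order. Over all introns it was higher in short introns of D. pseudoobscura, at 11.6% against 7.25% at 100 to under 1000 nt and 6.89% at 1000 nt or more. In D. eugracilis the 7.30% of short introns stood against 6.62% and 28.2%, and in D. bifasciata the 6.43% against 11.97% and 35.03%. Without the introns of 50% or more it was 0.444% in short introns of D. pseudoobscura, against 0.828% and 1.20% in the longer classes, and 0.459% in D. bifasciata, against 0.549% and 1.42%. In D. eugracilis the 0.379% of the short introns (95% interval 0.365 to 0.393) lay above the 0.311% of introns of 100 to under 1000 nt (0.297 to 0.325) and below the 1.97% of introns of 1000 nt or more. The summed share gives most weight to the deepest introns.

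Within the short range, introns with a share of 10% or more were more frequent at 90 to 99 nt than at 60 to 64 nt, near the length peak, and in D. pseudoobscura also at 50 to 54 nt. In D. pseudoobscura a share of 10% or more was found at 3.06% of introns of 50 to 54 nt (95% interval 1.79 to 4.85), 1.27% of those of 60 to 64 nt (0.925 to 1.69) and 4.79% of those of 90 to 99 nt (2.71 to 7.78). D. eugracilis had 0.909% at 60 to 64 nt (0.577 to 1.36) and 4.94% at 90 to 99 nt (2.58 to 8.47), while its 1.23% at 50 to 54 nt (0.563 to 2.32) did not stand out from the peak. D. bifasciata had 2.67% at 50 to 54 nt (1.5 to 4.36), which overlapped the 1.44% at 60 to 64 nt (1.09 to 1.88), and 3.95% at 90 to 99 nt (2.12 to 6.66). The upper end was thus raised over the class at 60 to 64 nt in each library, and the intervals there overlapped those of introns of 100 to under 1000 nt. They also overlapped some shorter classes, as 55 to 59 nt in D. bifasciata (1.52 to 2.66) and 65 to 69 nt in D. eugracilis (1.22 to 2.76). The class of 55 to 59 nt, which holds the peak of D. eugracilis, lay below the upper end there, at 1.56% (1.11 to 2.12). The introns under 50 nt numbered 14, 32 and 23, and 1, 4 and 3 of them reached the share of 10%, too few to fix a level.

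**Figure D4:**
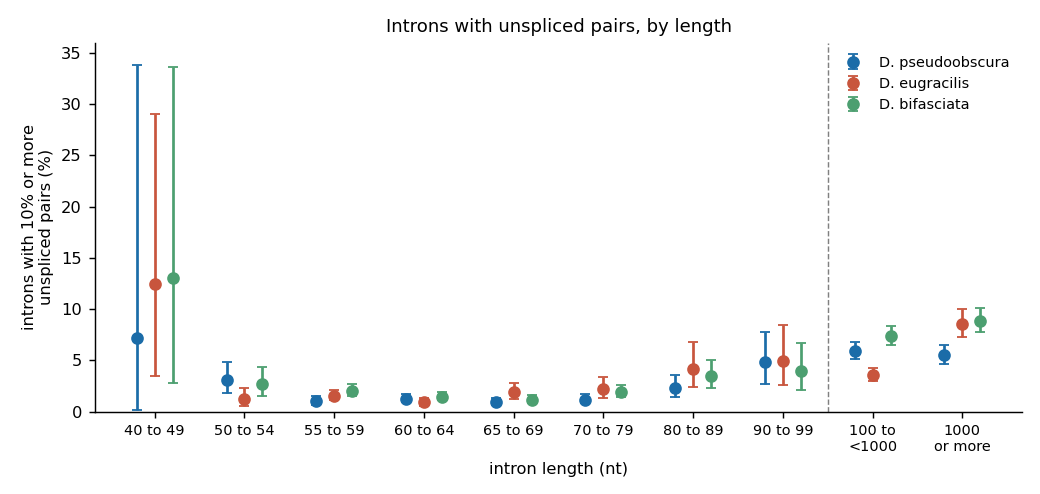
Share of introns with 10% or more unspliced pairs (y axis, %) by intron length (x axis, nt) in 3 species, with exact 95% intervals. Left of the dashed line are the short introns, whose points are higher at 90 to 99 nt than at 50 to 79 nt, with wide intervals at 40 to 49 nt, and right of it the longer introns of the same libraries.

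Unspliced shares were lower at introns read by many pairs. Without the introns of 50% or more, the summed share in D. pseudoobscura was 0.862% at 10 to 29 pairs, 0.493% at 30 to 99, 0.250% at 100 to under 300 and 0.270% at 300 pairs or more. It was 0.632%, 0.638%, 0.416% and 0.236% in D. eugracilis, and 0.866%, 0.536%, 0.434% and 0.309% in D. bifasciata, in the same order. Spliced pairs are part of both measures, so a lower share at higher depth is partly built in.

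The donor and the acceptor were compared apart, and their order turned with the set of introns. Over all short introns the donor had the higher unspliced share, at 11.9% (95% interval 11.87 to 12.02) against 11.3% at the acceptor (11.3 to 11.4) in D. pseudoobscura and 7.36% (7.31 to 7.40) against 5.48% (5.44 to 5.52) in D. bifasciata. The 7.33% of D. eugracilis at the donor (7.28 to 7.39) and the 7.26% at the acceptor (7.20 to 7.31) had overlapping intervals. These sums rest mostly on the introns of 50% or more. Without those the acceptor had the higher share, with 0.423% at the donor (95% interval 0.408 to 0.438) and 0.465% at the acceptor (0.449 to 0.481) in D. pseudoobscura, and 0.431% (0.419 to 0.444) and 0.487% (0.473 to 0.4999) in D. bifasciata. In D. eugracilis the ends stood further apart, with 0.226% (0.215 to 0.237) at the donor and 0.531% (0.515 to 0.548) at the acceptor. Some introns were unspliced on one side only. At least 10 unspliced pairs at the acceptor with 0 at the donor were found at 25 introns of D. eugracilis, 24 of D. bifasciata and 2 of D. pseudoobscura, and the reverse at 0, 10 and 0. Without them the D. eugracilis shares were 0.229% at the donor (0.218 to 0.240) and 0.391% at the acceptor (0.377 to 0.406), so that the ends stood closer but still apart.

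The example with most pairs in D. eugracilis was an intron of 62 nt in the gene LOC108111771 (NW_024573278.1, 202321 to 202382, minus strand), spliced in 316 pairs, of which 168 had 8 aligned bases on each side, with 269 unspliced pairs at the acceptor and 0 at the donor. In D. bifasciata an intron of 55 nt on the plus strand of CM019044.1 (29473806 to 29473860) had 25 spliced pairs, 880 unspliced pairs at the donor and 0 at the acceptor. The second was chosen after its values were seen. Pairs that were unspliced at both ends of one intron were found at 63 of 64 introns with at least 20 unspliced pairs over both ends in D. pseudoobscura. The numbers were 65 of 81 in D. eugracilis and 125 of 136 in D. bifasciata.

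Neighbouring introns could be read on the same RNA where 1 pair covered both. Over all short introns this was so at 2341 neighbours for D. pseudoobscura, 1081 for D. eugracilis and 3220 for D. bifasciata, parted by exons of a median of 147, 128 and 164 nt. Both introns were removed in 71.6% of 18158 such pairs in D. pseudoobscura (95% interval 70.9 to 72.2), 89.99% of 11897 in D. eugracilis (89.4 to 90.5) and 53.5% of 58510 in D. bifasciata (53.1 to 53.9). Single places gave most of the other pairs. In D. pseudoobscura 4564 of the 4580 pairs with both introns unspliced came from 1 pair of neighbours, and 1 pair of neighbours gave 702 of 805 pairs with only the downstream intron unspliced in D. eugracilis and 25304 of 25894 in D. bifasciata.

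Leaving out introns of 50% or more unspliced, a choice made on the outcome itself that raises joint splicing by construction, gave both introns removed in 99.1% of 13115 pairs for D. pseudoobscura, 97.4% of 10977 for D. eugracilis and 98.4% of 31751 for D. bifasciata. The relation between neighbours depended on that choice. Over all short introns, when the upstream intron was unspliced, the downstream one was unspliced too in 90.9% of 5038 pairs in D. pseudoobscura, 22.3% of 386 in D. eugracilis and 31.8% of 1294 in D. bifasciata. When the upstream intron was spliced, the values were 0.953% of 13120, 6.99% of 11511 and 45.3% of 57216, so that D. bifasciata ran the other way. Of the pairs with both introns unspliced, 1 pair of neighbours gave 75 of 86 in D. eugracilis and 263 of 411 in D. bifasciata. With the introns of 50% or more left out, the values were 18.1% of 83 pairs (10.5 to 28.0), 3.07% of 261 (1.33 to 5.95) and 9.73% of 411 (7.04 to 13.0) after an unspliced upstream intron, and 0.315% of 13032, 0.224% of 10716 and 0.313% of 31340 after a spliced one. Both introns were then unspliced at 12, 5 and 23 neighbours only.

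Which of the neighbours was the unspliced one also turned with that choice. Of the pairs with 1 intron spliced and the other not, the unspliced one was upstream in 458 of 583 pairs for D. pseudoobscura (78.6%, 95% interval 75.001 to 81.8), 300 of 1105 for D. eugracilis (27.1%, 24.5 to 29.9) and 883 of 26777 for D. bifasciata (3.30%, 3.09 to 3.52). Without the introns of 50% or more it was upstream in 68 of 109 (62.4%, 52.6 to 71.5), 253 of 277 (91.3%, 87.4 to 94.4) and 371 of 469 (79.1%, 75.1 to 82.7). In this second set the upstream kind was seen at 41, 31 and 105 neighbours and the other kind at 26, 16 and 54, and a single place gave 108 of the 253 pairs of D. eugracilis. No direction therefore held for D. eugracilis and D. bifasciata under both counts. In D. pseudoobscura 1 pair of neighbours gave 379 of the 458 upstream pairs over all short introns. The largest number from 1 place among the 125 downstream pairs was 39. The upstream direction of D. pseudoobscura over all short introns thus rested mostly on 1 place.

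For D. eugracilis the introns could be set against annotated genes. Of the 8603 short introns, 8286 lay on contigs that could be joined to the RefSeq gene table of assembly ASM1815383v1. There 8086 lay within exactly 1 gene, 182 within 2 or more and 18 in none. All but 3 of those in 1 gene belonged to protein-coding genes, and the 3 to lncRNA genes. The introns were spread over 3858 genes, of which 1767 held 1 and 282 held at least 5, with a median of 2 and at most 12. Of the 35 mostly unspliced introns, 31 lay in exactly 1 gene, each protein-coding.

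Short introns were rarer at the start of genes. Among 1979 genes with at least 3 introns of unshared ends, 41.2% of the first such introns were short (95% interval 39.1 to 43.4), against 66.1% of those in between (64.8 to 67.4) and 70.9% of the last (68.8 to 72.9). The short introns had median lengths of 62, 62 and 61 nt at these positions. A share of 10% or more was also more frequent at short introns in first position. It was found at 4.66% of 816 such introns (3.32 to 6.34). In between it was found at 0.626% of 3356 (0.388 to 0.955), and in last place at 1.14% of 1403 (0.653 to 1.85). Of the introns unspliced at the acceptor only, 12 lay in these genes, and 11 of them were in first position. The share is the mean of both ends, so pairs at the acceptor alone raise it. Another transcript that starts inside the intron can also give such pairs, and this was not separated here. Introns that share an end or have under 10 pairs are not in this order, so the first intron counted here need not be the first of the transcript.

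The QuantSeq library, which the rule did not use, showed part of the D. eugracilis introns again. At least 1 QuantSeq read was spliced over 1721 of the 8603 introns (95% interval 19.2 to 20.9%), and the share grew with polyA depth. It was 13.1% at 10 to 29 pairs, 21.4% at 30 to 99, 39.8% at 100 to under 300 and 61.6% at 300 pairs or more. The strand was the same at 99.5% of the introns seen. Levels could differ widely between the libraries, since the intron on NW_024572605.1 had 32756 polyA pairs and 37560 QuantSeq reads, whereas the deepest polyA intron, on NW_024572672.1, had 52432 pairs and 232 QuantSeq reads. Reads of this library lie near the 3′ ends of RNA, so it can show only introns close to them.

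Of the mostly unspliced introns with at least 10 QuantSeq reads, most were mostly unspliced there too. Of the 35, 8 were spliced in at least 1 QuantSeq read (22.9%, 95% interval 10.4 to 40.1), against 1713 of the 8568 others (19.2 to 20.9%), so that the intervals overlapped. Over all 35, 98 spliced reads stood against 3983 unspliced reads at the donor and 6625 at the acceptor, an unspliced share of 98.2% (97.8 to 98.5), against 0.767% (0.720 to 0.818) for the others. Single introns, given below, made up a large part of these unspliced reads. Of 12 with at least 10 QuantSeq reads, 11 had an unspliced share of 10% or more and 9 of 50% or more, while of 464 others it was 24 and 10. The intron of 98 nt beside the deepest one was spliced in 34 QuantSeq reads, with 495 unspliced reads at the donor and 3012 at the acceptor. The introns of 73 nt in LOC108113208 and of 42 nt in LOC108102464 were spliced in 0 QuantSeq reads, although 47 and 1588 unspliced reads crossed their donors. Of the 8 with a spliced QuantSeq read, 4 had a length that is a multiple of 3, as did 14 of the 27 without one.

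**Figure D5:**
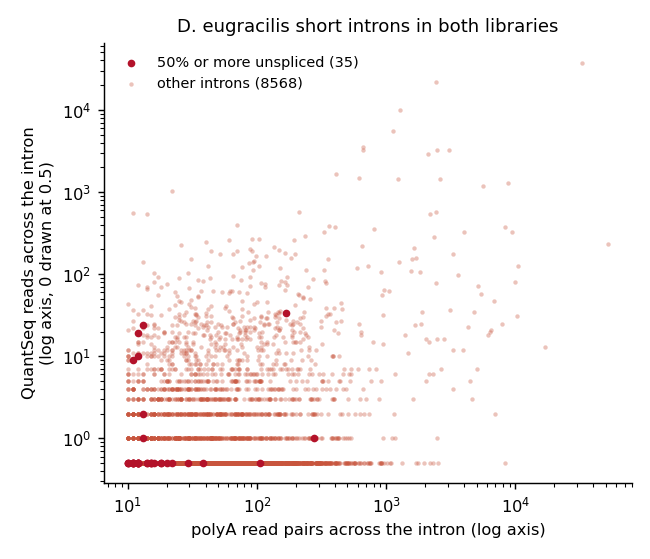
QuantSeq reads (y axis, log scale, 0 drawn at 0.5) against polyA pairs (x axis, log scale) spliced over each short intron of D. eugracilis, 1 point per intron. Red points are the 35 introns that were 50% or more unspliced in polyA, of which 8 lie above 0 in QuantSeq.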

How the data were processed

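Ovary RNA was sequenced in 3 polyA libraries and 1 QuantSeq library. According to labels and methods, the authors trimmed adapters and filtered reads with the FASTX-Toolkit, mapped them with STAR (2.7.3a) at no more than 3 mismatches, and wrote alignment lists with SAMtools 1.10 and bedtools 2.28.0. The assemblies were ASM1815383v1 for D. eugracilis, UCBerk_Dbif_1.0 for D. bifasciata and a Nanopore assembly for D. pseudoobscura. The deposited score was 255 in every line and was not used. The other deposited columns used were positions, strands and aligned blocks. In the D. bifasciata sample 1 label field gives D. eugracilis as the species, but the title and organism fields give D. bifasciata, which was used. The strain names of the labels differ from the stock numbers in the methods.

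Introns and borders were counted in Python 3.11.15 with numpy 2.4.6, pandas 2.3.3 and scipy 1.17.1. Both mates of a pair counted once. A border was crossed where 1 block held at least 8 bases on each side. Mean counts of both ends were rounded for intervals. The code was tested on simulated data and recovered 200 of 200 introns. Runs of rising start in the gene table (56 runs, 14274 of 15386 genes) were joined to contigs where at least 90% of at least 30 junctions lay inside genes of a run of at least 10 genes, each the best match of the other, so contigs of genes are inferred. Contig numbers rose in 55 of 55 neighbouring runs. No genome of these builds was used, so splice site sequences were not analysed here.

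The members, groups and cutoffs were chosen with earlier results of these data known. Introns named are, per library, the 3 with most pairs, the 3 with the highest unspliced share among those with at least 100 spliced pairs, and the deepest of the shortest and the longest with at least 100 pairs. Others are marked as chosen after their values were seen. Alternatives covered depth, sharing, identical pairs, thinning, border length and summing.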

Additional observations from a re-analysis of the deposited data

How the results depend on the processing

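The peak lengths and the shares of lengths that are a multiple of 3 moved little under the alternatives. So did the numbers of introns, except with a minimum of 20 pairs. That minimum lowered the number from 13015 to 9114 introns for D. pseudoobscura. For D. eugracilis it fell from 8603 to 5670, while D. bifasciata kept 10517 of 13447. The summed unspliced share rested on few introns and moved under most settings, given here in the order D. pseudoobscura, D. eugracilis, D. bifasciata. It was 9.79%, 3.95% and 3.71% with at least 20 pairs, 12.5%, 8.32% and 4.37% with sharing checked against introns of 3 or more pairs, and 7.35%, 4.77% and 5.39% with identical pairs counted once. With only unspliced pairs that crossed both ends of the intron it was 5.34%, 2.12% and 2.74%, and the median over introns was 0% in each. With 15 aligned bases at borders it was 11.9% in D. pseudoobscura and 7.36% in D. eugracilis, with 4 bases 7.43% in D. eugracilis and 7.15% in D. bifasciata, and with pairs thinned to the smallest library 6.35% in D. bifasciata. Leaving out introns of 50% or more, chosen after seeing the data, gave 0.444%, 0.379% and 0.459%. With identical pairs counted once, 28, 22 and 48 such introns were found, of which 67.9%, 59.1% and 43.8% had a length that is a multiple of 3. With 4 and 15 bases at borders, that share was 63.6% and 69.7% in D. pseudoobscura, 45.5% and 45% in D. eugracilis, whose intervals then included the 32.8% of all its short introns, and 39.1% and 40.3% in D. bifasciata. At least 3 QuantSeq reads were spliced over 11.8% of the D. eugracilis introns. The causes were not tested. No paired analysis was possible because each group had 1 library. At the median depth, 0 unspliced pairs at an intron allow shares of up to 11.5%, 12% and 8.33%.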
